A study of Rattus norvegicus with 8 samples.

Results

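The voltage-gated sodium channel genes described here are the 7 symbols Scn1a, Scn2a, Scn3a, Scn8a, Scn2b, Scn3b and Scn4b, looked up by name among the 28909 gene symbols of the count table. All 7 were found, 4 of them alpha subunits and 3 beta subunits. Primary hippocampal neurons of Sprague-Dawley rats were grown on porous inserts, and total RNA, depleted of ribosomal RNA, was sequenced separately from the somata on the upper side and from the processes below. The cultures received vehicle, here called control, or picrotoxin (PTX), a blocker of GABA-A receptors that raises network activity, from 18 to 20 days in vitro, which is 48 h. Each of the 4 groups (somata control, somata PTX, processes control and processes PTX) held 2 libraries, 8 in all. The sources do not say whether the replicates were separate cultures or preparations, so p-values measure the spread between these libraries. The cultures were made from embryonic hippocampus.

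Voltage-gated sodium channels carry the inward current that starts and propagates the action potential. The alpha subunit forms the pore and the voltage sensors, and in hippocampal neurons it is anchored at the axon initial segment by ankyrin G. Beta subunits are single-pass membrane proteins with an immunoglobulin-like domain, and they modulate gating, surface expression and cell adhesion.

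Upstream sequences of 5 of the 7 genes were found in the RefSeq promoter table (build GRCr8, a later assembly than the Rnor 6.0 to which the reads were mapped). Shown are the 250 bases before the annotated start of Scn8a (chr7:133860977-133861226, plus strand) and Scn2b (chr8:54322133-54322382, plus strand), which were lower after PTX, and of Scn3a (chr3:70666199-70666448, minus strand), which was not. Capitals mark matches on either strand to a GC box (GGGCGG), the AP-1 motif (TGANTCA), the cAMP response element (TGACGTCA), its partial site TGACG, which the full element contains, or TATAAA.
Scn8a: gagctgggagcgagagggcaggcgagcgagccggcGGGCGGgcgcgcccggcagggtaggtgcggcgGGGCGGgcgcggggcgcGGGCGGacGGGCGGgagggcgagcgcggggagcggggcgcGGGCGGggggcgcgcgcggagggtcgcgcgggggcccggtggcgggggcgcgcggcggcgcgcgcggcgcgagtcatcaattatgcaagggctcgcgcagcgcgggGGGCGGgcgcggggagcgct
Scn2b: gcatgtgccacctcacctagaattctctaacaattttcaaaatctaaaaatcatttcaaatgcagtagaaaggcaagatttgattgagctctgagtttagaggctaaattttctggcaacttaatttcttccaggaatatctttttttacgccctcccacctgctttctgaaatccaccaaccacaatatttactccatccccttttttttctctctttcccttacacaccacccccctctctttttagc
Scn3a: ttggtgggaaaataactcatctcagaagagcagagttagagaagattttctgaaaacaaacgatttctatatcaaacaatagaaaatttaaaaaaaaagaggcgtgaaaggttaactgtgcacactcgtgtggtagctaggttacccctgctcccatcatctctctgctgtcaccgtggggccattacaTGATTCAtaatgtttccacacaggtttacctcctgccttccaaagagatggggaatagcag

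The Scn8a window held 6 GC boxes and 86% G and C, the Scn3a window held 1 AP-1 match and 41.6% G and C, and the Scn2b window held no match and 38.8% G and C. Over the 33469 windows of the table the median was 51.2% G and C, a GC box was present in 30.5% of windows, the AP-1 motif in 6.34%, TGACG in 18.2%, the full cAMP response element in 1.59% and TATAAA in 12.9%. The other windows, of Scn2a with 39.6% and Scn4b with 71.6% G and C, held no match. The windows of Scn8a and Scn4b lay above the upper quartile (60%) of all windows, and those of Scn2b, Scn2a and Scn3a below the lower quartile (44%). In the same assembly Scn3a and Scn2a are neighbours on chromosome 3, where Scn1a also lies, and Scn2b and Scn4b are neighbours on chromosome 8.

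Library totals were between 12290890 and 18455662 counts. In processes 64.9% to 68.3% of the counts fell on the 2 most abundant genes of the mitochondrial genome, against 21.1% to 24.8% in somata. Counts outside the mitochondrial genome were therefore between 4702054 and 5491237 in processes and between 9517542 and 11227599 in somata, and the 7 sodium channel genes together received 1529 to 2171 and 9469 to 12373 counts, so that they were measured less precisely in processes. All 7 passed the filter of more than 20 reads in at least 2 libraries (14309 genes). Scn4b passed only through its 34 and 36 reads in somata control. Levels are given as CPM (counts per 1000000 library counts) after TMM scaling, which sets the libraries to a common typical gene. As no exon lengths were used, levels are compared between libraries for each gene, never between genes.

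**Figure D1:**
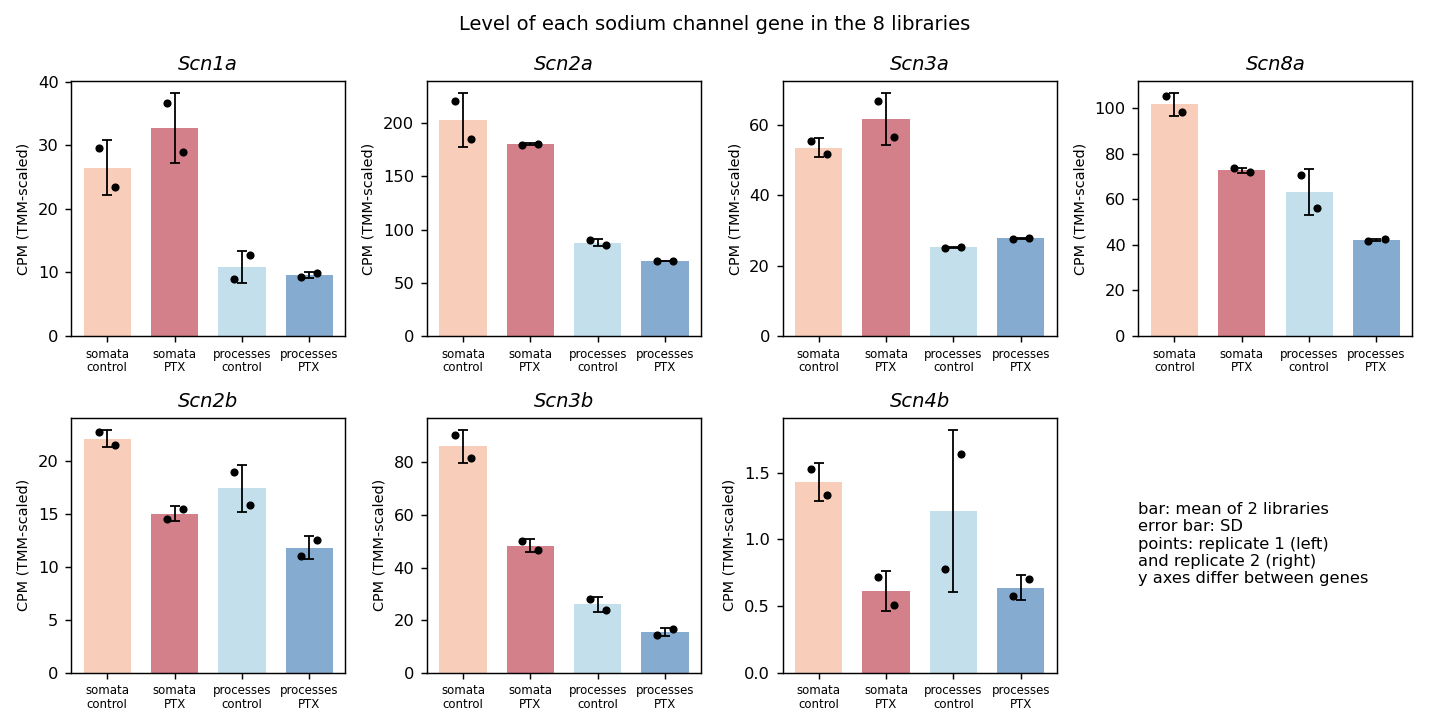
TMM-scaled CPM (y axis, a separate scale for each gene) of the 7 sodium channel genes in the 4 groups. Bars are means of 2 libraries, error bars the SD and points the libraries. For Scn8a, Scn2b and Scn3b both PTX libraries lie below both control libraries in each compartment. The same holds for Scn2a and Scn4b, which did not pass in either compartment, so this is a description only.

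To find out how sodium channel transcripts were distributed between the compartments, processes were compared with somata, separately in control and in PTX cultures. In control cultures 5 of the 7 genes were lower in processes with an adjusted p under 0.05 (edgeR's quasi-likelihood test over all 14309 genes), and none was higher. Over all tested genes, 47.7% passed in either direction and 21.9% were lower. The same 5 genes (Scn1a, Scn2a, Scn3a, Scn8a and Scn3b) passed in PTX cultures, where 49.8% of all genes passed and 24% were lower. The median log2 fold change of the 7 genes was -1.09 in control and -1.16 in PTX cultures, beside -0.05 for all tested genes in each. Differences between the compartments are relative to the typical gene: scaled by library size only, the median of all genes was -1.86 in control cultures and that of the 7 genes -2.89. In such bulk samples, a smaller share of a cell type and less RNA per cell cannot be told apart.

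**Figure D2:**
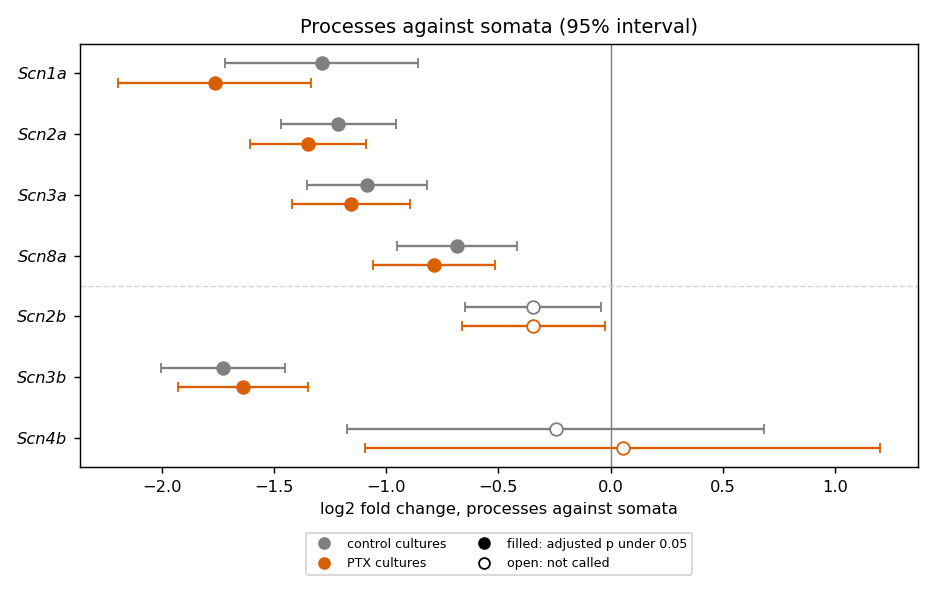
Log2 fold change of processes against somata (x axis) for the 7 genes in control and PTX cultures, with 95% intervals. Filled points passed an adjusted p of 0.05, and Scn2b and Scn4b, whose points are open, lie closest to 0.

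Among the alpha subunits, Scn2a encodes a channel of the initial segment and of unmyelinated axons of excitatory neurons. It was measured at 221 and 185 CPM in the 2 somata control libraries and at 89.8 and 85.1 CPM in the 2 processes control libraries. After PTX, the levels were 180 and 181 CPM in somata and 70.7 and 70.7 CPM in processes. All 4 process libraries were thus below all 4 somata libraries, with log2 fold changes of -1.21 (standard error 0.116, adjusted p = 1.36e-05) in control and -1.35 (standard error 0.117, adjusted p = 6.63e-06) in PTX cultures.

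Scn1a, a channel prominent in fast-spiking inhibitory neurons, had log2 fold changes close to those of Scn2a in control cultures, and their order turned when replicate 1 of processes control was left out (-1.06 for Scn1a and -1.25 for Scn2a). Its levels were 29.5 and 23.5 CPM in somata control, 36.6 and 28.9 CPM in somata PTX, 9.03 and 12.7 CPM in processes control and 9.3 and 9.95 CPM in processes PTX. The compartments did not overlap, and the log2 fold change of processes against somata was -1.29 (standard error 0.195, adjusted p = 0.000337) in control and -1.76 (standard error 0.195, adjusted p = 3.53e-05) in PTX cultures. With 81 to 108 reads in a process library, Scn1a was less precise there than the other alpha subunits.

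Scn3a, which is best known from embryonic and neonatal brain, was at 55.5 and 51.7 CPM in somata control and 66.9 and 56.6 CPM in somata PTX. In processes it was at 25.1 and 25.4 CPM in control and 27.7 and 27.8 CPM after PTX. The process libraries again lay below every somata library, with log2 fold changes of -1.09 (adjusted p = 3.97e-05) and -1.16 (adjusted p = 2.19e-05) in control and PTX cultures.

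Scn8a encodes the main channel of the mature initial segment and of nodes of Ranvier. Its levels were 105 and 98.2 CPM in somata control, 73.6 and 71.9 CPM in somata PTX, 70.5 and 56 CPM in processes control and 41.8 and 42.4 CPM in processes PTX. Of the 4 alpha subunits it had the smallest difference between compartments, with log2 fold changes of -0.68 (standard error 0.121, adjusted p = 0.000976) in control and -0.79 (standard error 0.124, adjusted p = 0.000408) in PTX cultures. Unlike the other alpha subunits, its somata PTX libraries were close to its processes control libraries, and the order of its group means was somata control, somata PTX, processes control and processes PTX. The differences between the alpha subunits in these fold changes were not tested.

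The beta subunits differed from each other. Scn3b, whose product binds the alpha subunit non-covalently, was at 90.6 and 81.8 CPM in somata control and 28 and 24 CPM in processes control, which on the log2 scale was -1.73 (standard error 0.126, adjusted p = 2.32e-06), the largest difference of the 7 genes in control cultures. In PTX cultures it was at 50 and 46.5 CPM in somata and 14.5 and 16.5 CPM in processes, which gave -1.64 on the log2 scale (standard error 0.131, adjusted p = 3.96e-06). Its levels in processes control were thus below those in somata PTX.

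Scn2b, whose product is linked to the alpha subunit by a disulfide bond, was at 22.7 and 21.5 CPM in somata control and 19 and 15.9 CPM in processes control. In PTX cultures the levels were 14.5 and 15.5 CPM in somata and 11 and 12.6 CPM in processes. The process libraries were below the somata libraries of the same treatment, but the log2 fold changes of -0.34 (95% interval -0.65 to -0.04, adjusted p = 0.0598) in control and -0.34 (95% interval -0.66 to -0.03, adjusted p = 0.0683) in PTX cultures did not pass. With replicate as a block the adjusted p was 0.0249 and 0.0381.

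Scn4b, which also forms a disulfide bond with alpha subunits and is known for resurgent sodium current, was close to the detection limit. It had 36 and 34 reads in somata control, 20 and 12 in somata PTX, 7 and 14 in processes control and 5 and 7 in processes PTX. In CPM this was 1.53 and 1.33, 0.719 and 0.508, 0.781 and 1.64, and 0.574 and 0.704. The compartments overlapped in both treatments, and the log2 fold change was -0.25 (95% interval -1.18 to 0.69, adjusted p = 0.657) in control cultures. In PTX cultures it was 0.05 (95% interval -1.10 to 1.20, adjusted p = 0.941), so that the direction of its difference was not detectable at this depth.

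The 8 neuronal markers chosen as a check were all detected in every group, with summed levels of 1778 to 1967 CPM in somata control and 5264 to 5655 CPM in processes control. Map2, a dendritic protein, accounted for most of the latter (a mean of 4609 CPM, against 936 CPM in somata), whereas Tubb3 and Snap25 were lower in processes and the median log2 fold change of the list was -0.02. Markers of astrocytes (7 of 7 detected) had summed levels of 3899 to 4313 CPM in somata control and 13060 to 14590 CPM in processes control, of which Gfap gave a mean of 1685 and 10250 CPM, while Slc1a3 (-0.56) and Gja1 (-0.38) were lower in processes on the log2 scale. The markers of the oligodendrocyte lineage (8 of 8) had 295 to 454 CPM and 471 to 606 CPM. Inhibitory neuron markers (7 of 8 in the table) had 245 to 348 CPM in somata control and 138 to 180 CPM in processes control. Pvalb, the marker of fast-spiking inhibitory neurons, had between 4 and 18 reads in each library. Microglial markers were at or under 1.91 CPM in sum in every library, Cx3cr1 was at 0 in processes and Tmem119 in processes control. Of the endothelial and mural markers (5 of 6 in the table, at most 21.6 CPM in sum), Cldn5 was at 0 in every library. Of 3 nuclear RNAs chosen as markers 1 was in the table, Snhg11, which was lower in processes of control cultures (log2 fold change -1.09, adjusted p = 0.00148) at 5.87 to 8.47 CPM, against 13.8 to 16.9 CPM in somata. The part of these cells and of nuclear RNA in the lower level of sodium channel genes in processes was not tested.

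Next, the response to PTX was examined in each compartment. In somata, Scn2b and Scn3b fell, and the other 5 genes did not pass. This is 2 of 7 genes, while 3.59% of all 14309 tested genes passed and 1.5% were lower. In processes, Scn8a and Scn3b fell, again 2 of 7, beside 3.74% of all genes passing and 2.1% being lower. No sodium channel gene rose in either compartment. The median log2 fold change of the 7 genes was -0.48 in somata and -0.56 in processes, and that of all tested genes -0.01 in each. For the alpha subunits the medians were 0.02 and -0.24, and for the beta subunits -0.84 and -0.74, which are the values of Scn3b. The beta and 7-gene medians include Scn4b, which passed the read filter only through somata control, and are descriptions only.

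**Figure D3:**
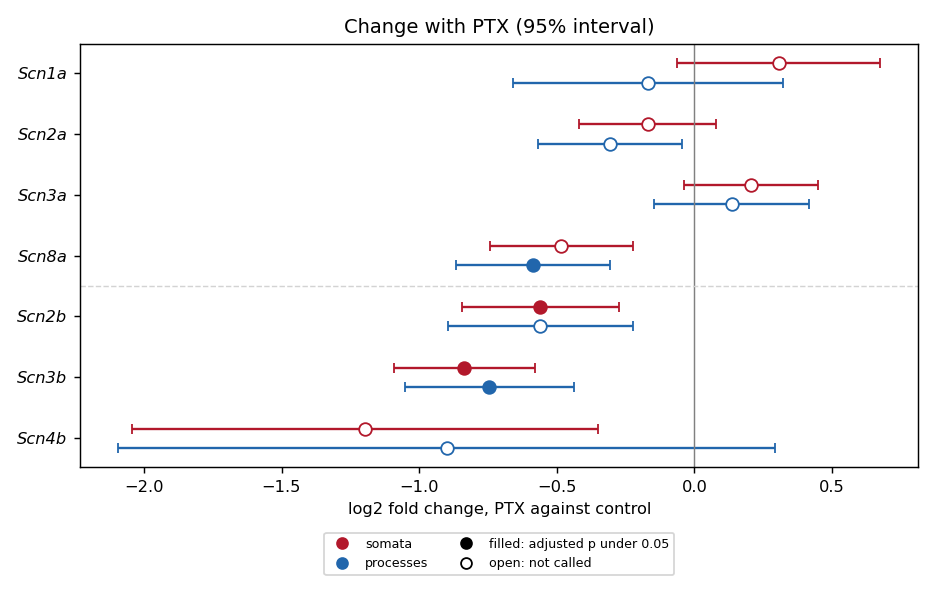
Log2 fold change of PTX against control (x axis) for the 7 genes in somata and in processes, with 95% intervals and filled points where the adjusted p was under 0.05. Scn8a and the 3 beta subunits lie to the left of 0 in both compartments, whereas Scn1a, Scn2a and Scn3a lie nearer to it.

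Scn3b was the gene of the 7 that passed in both compartments in the main fit. As the values above show, its PTX libraries were below its control libraries without overlap, and its level after PTX was 0.56 of that of control in somata and 0.597 in processes. With 2 libraries per group such a separation often arises by chance. Its share over all genes was not counted, so here and below it is a description only. The log2 fold changes of Scn3b were -0.84 (standard error 0.116, adjusted p = 0.00367) and -0.74 (standard error 0.139, adjusted p = 0.0174). In somata Scn3b passed with each library left out in turn. In processes it did not pass without replicate 1 of processes control (adjusted p = 0.13), without replicate 1 (0.114) or replicate 2 (0.0597) of processes PTX, or when the 4 process libraries were fitted alone (0.0513).

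Scn2b changed by -0.56 on the log2 scale in each compartment, to 0.679 of the control level, with a standard error of 0.129 in somata and 0.152 in processes. In somata the adjusted p was 0.0389, and in processes it was 0.0752, or 0.0175 with the replicate block. The PTX libraries did not overlap with the control libraries in either compartment. In somata the call was lost without any 1 of the 4 somata libraries (adjusted p from 0.144 to 0.274), with DESeq2 (0.0747) and with scaling by library size only (0.105), while the log2 fold change stayed between -0.61 and -0.49.

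Scn8a was the alpha subunit with the largest response. Its log2 fold change was -0.59 in processes (standard error 0.127, adjusted p = 0.0309) and -0.48 in somata (standard error 0.118, adjusted p = 0.051). In somata it thus just missed the threshold, and it passed in 6 of 8 other settings, among them DESeq2 and the replicate block (0.000561). It did not pass there with library size only or with at least 10 reads in every library. The 4 PTX libraries did not overlap with the control libraries of their compartment. In processes the call was lost when replicate 1 of processes control (adjusted p = 0.197) or either processes PTX library (0.141 and 0.128) was left out, and the adjusted p was 0.0513 with library size only and 0.0862 when the process libraries were fitted alone. The log2 fold change without replicate 1 of processes control, the higher of the 2 control libraries, was -0.41.

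Scn4b had the largest estimates, -1.20 in somata (95% interval -2.04 to -0.35) and -0.90 in processes (95% interval -2.09 to 0.29), but at its low counts neither passed (adjusted p = 0.135 and 0.457). With the replicate block the adjusted p in somata was 0.0262. Because the gene met the read filter through its somata control libraries, its lower value after PTX in somata is a description only, and this also holds for its averaged PTX effect and its fits with a block given below.

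The other 3 alpha subunits did not pass in either compartment. Scn2a was lower after PTX without overlap in somata and in processes, and its fold changes on the log2 scale were -0.17 (95% interval -0.42 to 0.08, adjusted p = 0.561) in somata and -0.31 (95% interval -0.57 to -0.05, adjusted p = 0.216) in processes. The values for Scn3a were 0.21 (95% interval -0.04 to 0.45, adjusted p = 0.431) and 0.14 (95% interval -0.15 to 0.42, adjusted p = 0.667), with each PTX library above both control libraries of its compartment. For Scn1a they were 0.31 (95% interval -0.06 to 0.68, adjusted p = 0.437) and -0.17 (95% interval -0.66 to 0.32, adjusted p = 0.774), and its libraries overlapped in both compartments. The lower bounds for Scn3a set a decrease of more than 0.15 on the log2 scale outside its intervals.

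Inhibitory neuron markers were mixed under PTX: of the 6 tested, 2 rose in somata, Gad1 (log2 fold change 0.82, adjusted p = 0.0247) and Gad2 (0.92, adjusted p = 0.0328), and 1 in processes. Over all tested genes 3.59% passed in somata and 3.74% in processes. In somata the 6 ranged from -0.41 for Dlx1 to 0.92, with a median of 0.19, and Slc32a1 was at -0.02. In processes Dlx1 was at -0.54 and the median at 0.37. The summed level of the list in somata was 419 to 550 CPM after PTX, of which Gad1 and Gad2 gave means of 137 and 254 CPM. Of the 8 neuronal markers, Rbfox3 fell in somata by 0.67 (adjusted p = 0.0221) and Syn1 in processes by 0.76 on the log2 scale (adjusted p = 0.0229). Of the 6 excitatory neuron markers Neurod6 fell in both compartments and Neurod2 in processes, whereas Slc17a7 rose in processes by 0.73. Summed levels of the excitatory markers were 232 to 261 CPM in somata PTX, against 318 to 330 CPM in somata control, but 263 to 287 CPM in processes PTX against 163 to 211 CPM in processes control. Their part in the responses of the sodium channel genes was not tested. Among the astrocyte markers 1 of 7 fell in somata and 0 changed in processes, where with the replicate block Slc1a3 rose (adjusted p = 0.0171) and Gja1 fell (adjusted p = 0.00421). With the block 4 of the 8 neuronal markers fell in somata and 5 in processes, and 3 and 2 of the 6 inhibitory neuron markers rose. Under the block 14% of all genes passed in either direction in somata and 11.2% in processes. Of 2 tested endothelial and mural markers Kdr rose in somata.

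Whether PTX acted unequally on somata and processes was tested as an interaction term, in which negative values are a larger decrease in processes. For the 7 genes 0 passed, as for all tested genes (0%), where the smallest adjusted p was 0.115 with edgeR's quasi-likelihood test. At an unadjusted p under 0.05 there were 0 of the 7 genes and 4% of all genes, and 0 of the 7 genes passed with the likelihood ratio test, DESeq2 or the replicate block. The interaction was 0.00 for Scn2b (95% interval -0.44 to 0.44), 0.09 for Scn3b (95% interval -0.31 to 0.49) and -0.10 for Scn8a (95% interval -0.49 to 0.28). The largest estimate among the alpha subunits was -0.48 for Scn1a (95% interval -1.09 to 0.14). That Scn8a passed in processes and Scn2b in somata is therefore no difference between the compartments that these data could show.

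For this reason a comparison chosen after the data were seen averaged the PTX effect over somata and processes (4 PTX against 4 control libraries in the same fit). The somata and processes libraries of 1 replicate number may come from the same cultures. Deviations of replicate 2 from replicate 1 were correlated between the compartments (r = 0.295 in control and 0.367 in PTX cultures). The test treats the 4 libraries of a treatment as separate replicates, so its p-values may be too small. Scn3b fell by 0.79 (standard error 0.0905, adjusted p = 0.000564), Scn2b by 0.56 (standard error 0.0995, adjusted p = 0.00537) and Scn8a by 0.54 on the log2 scale (standard error 0.0865, adjusted p = 0.00317). These 3 of 7 genes compare with 10% of all tested genes, of which 5% were lower, and all 3 passed with each library left out and in every other setting. Scn4b was at -1.05 (adjusted p = 0.0735) and Scn2a at -0.24 (adjusted p = 0.0963), with 0.0274 and 0.0142 under the replicate block. Scn3a was at 0.17 (95% interval -0.02 to 0.36) and Scn1a at 0.07 (95% interval -0.24 to 0.38).

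**Figure D4:**
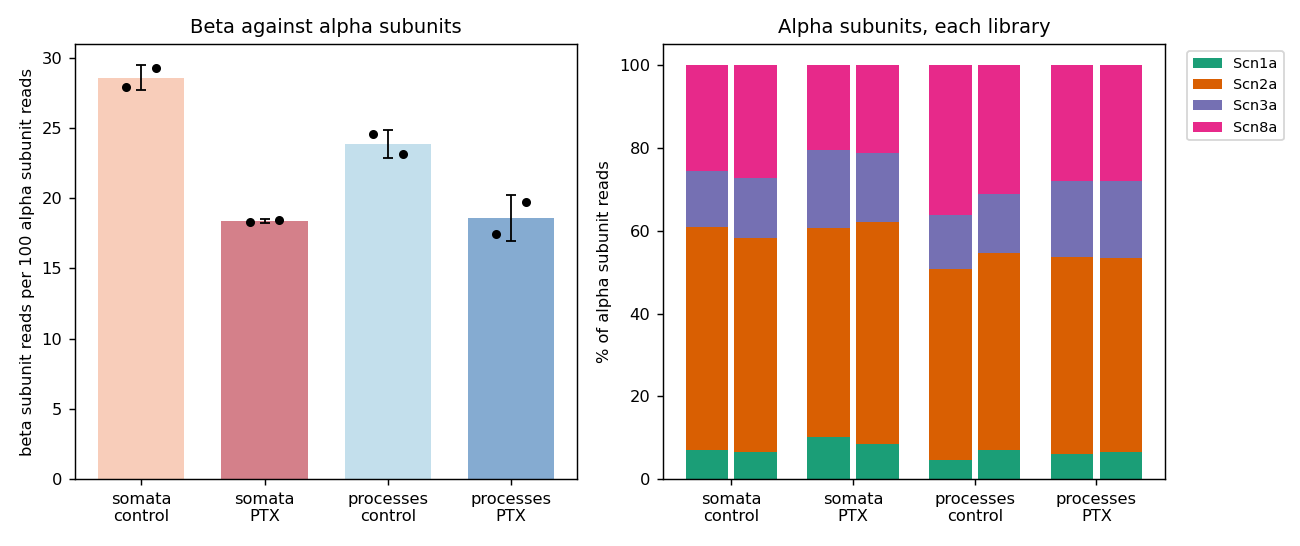
Left, beta subunit reads per 100 alpha subunit reads (y axis) in the 4 groups, with means of 2 libraries, SD and the libraries as points, and both PTX groups below their controls. Right, the percentage of alpha subunit reads from each alpha subunit in each library, replicate 1 to the left, with the Scn8a share lower and the Scn3a share higher after PTX.

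The alpha and beta subunits were also set against each other within each library, which needs no scaling between libraries. These are shares of reads, not of molecules, since longer transcripts give more reads. In somata the 3 beta subunits together gave 27.9 and 29.2 reads per 100 alpha subunit reads in control and 18.3 and 18.5 after PTX. In processes the values were 24.6 and 23.1 in control and 17.4 and 19.7 after PTX. The PTX libraries were below the control libraries in both compartments, with group means of 28.6 ± 0.912 and 18.4 ± 0.127 in somata and 23.8 ± 1.01 and 18.6 ± 1.63 in processes (SD, n = 2). Summed over the genes, the alpha subunits were at 385 ± 37.4 CPM in somata control and 348 ± 12.9 CPM in somata PTX, and the beta subunits at 110 ± 7.14 and 63.9 ± 1.93 CPM (SD, n = 2). The processes had alpha sums of 187 ± 10.7 (control) and 150 ± 0.919 CPM (PTX), and beta sums of 44.6 ± 4.43 and 27.9 ± 2.61 CPM (SD, n = 2).

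Within the alpha subunits, Scn8a gave 26.5% ± 1.31 of the reads in somata control and 20.9% ± 0.431 in somata PTX, and 33.8% ± 3.54 and 28% ± 0.12 in the corresponding process groups (SD, n = 2). The share of Scn3a was 14% ± 0.658 and 17.7% ± 1.44 in somata and 13.5% ± 0.877 and 18.4% ± 0.0778 in processes. Scn2a kept the largest read share, between 46.2% and 53.7% in every library, with exact binomial 95% intervals that cover counting error only and reached from 43.8% to 54.7%. Scn1a gave between 4.65% and 10.3% of the reads. PTX libraries and control libraries of a compartment did not overlap for the shares of Scn8a and Scn3a, and they overlapped for Scn2a. For Scn1a they overlapped in processes but not in somata (7.19% and 6.55% in control, 10.3% and 8.53% after PTX). The shares of a library depend on each other, so a lower share of 1 gene raises the others. The level of Scn3a itself did not pass in either compartment. Among the beta reads, Scn2b had a share of 20.2% ± 0.573 in somata control and 39% ± 1.05 in processes control.

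Across the 8 libraries, the log2 CPM of the members followed each other to different degrees. Pearson's r was 0.97 between Scn8a and Scn3b, 0.92 between Scn8a and Scn2b and 0.98 between Scn1a and Scn3a, but 0.38 between Scn3a and Scn2b and 0.01 between Scn3a and Scn4b. The points share the compartment and the treatment, so these values describe the 8 libraries and carry no test. Among the 10208 tested genes that averaged 5 CPM or more, the patterns most like that of Scn8a were those of Prpf19 and Chst1 (r = 0.997 for each), for Scn3b those of Ttc8 (0.994) and Paqr4 (0.993), and for Scn2b those of Foxo1 (0.989) and Cntn2 (0.98). For Scn3a they were Nktr (0.998) and Wsb1 (0.997), for Scn2a Usp11 (0.997) and RF00108, listed by the name of an RNA family (0.996), and for Scn1a Stx16 (0.996) and Txndc16 (0.995). The closest patterns to Scn4b, Ankra2 (0.938) and Nr1d2 (0.936), were less alike.

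Finally, lists of genes that work with sodium channels were examined. The scaffold and adhesion proteins of the initial segment and axon (10 of 10 tested) had 3 genes higher and 2 lower in processes of control cultures, a share close to the 47.7% of all tested genes that passed. Ank2, a membrane scaffold, was higher in processes by 1.24 and the spectrin Sptbn4 by 0.96, while the adhesion molecule L1cam was lower with -1.09 on the log2 scale. The calls in PTX cultures were of the same number in each direction. Ank3, which encodes ankyrin G, changed with PTX by 0.17 in somata (adjusted p = 0.62) and -0.06 in processes (adjusted p = 0.867).

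With PTX, 2 of these 10 genes fell in each compartment and 0 rose, while 1.5% of all tested genes were lower in somata and 2.1% in processes. They were L1cam, with log2 fold changes of -0.94 in somata (adjusted p = 0.00425) and -0.94 in processes (adjusted p = 0.00827), and Cntn2, an axonal adhesion molecule, with -1.10 (adjusted p = 0.00587) and -1.60 (adjusted p = 0.00567). Cntn2 had 70 and 52 reads in processes control and 18 and 25 in processes PTX. The median of the list was -0.30 in somata and -0.29 in processes, and with the replicate block, under which 14% and 11.2% of all genes passed in either direction, 4 and 5 of the 10 genes fell.

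The FGF homologous factors are intracellular proteins that bind the C terminus of alpha subunits. All 4 were tested, and Fgf13 fell with PTX to 0.587 of the control level in somata (adjusted p = 0.0114) and to 0.499 in processes (adjusted p = 0.00444). Its reads were 2563 and 2419 in somata control and 1585 and 1479 in somata PTX, and 2036 and 2106 against 909 and 1313 in processes, and the PTX and control libraries did not overlap in CPM either. In contrast to the sodium channel genes, Fgf13 was higher in processes than in somata of control cultures (log2 fold change 1.22, adjusted p = 4.03e-05), while Fgf14 was lower (-0.95, adjusted p = 0.0209). With the replicate block 1 gene rose and 2 fell in somata, and 1 rose and 1 fell in processes, beside 14% and 11.2% of all genes passing.

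Of the 10 other channel-binding regulators, which include the ubiquitin ligase Nedd4l, 0 changed with PTX in either compartment, or 1 fell in processes with the block. As only 3.59% of all tested genes passed in somata and 3.74% in processes, 0 calls do not set this or the next short lists apart. In control cultures 3 were higher in processes and 1 was lower, beside 47.7% of all genes passing. The 7 genes of secretases known to cut beta subunits likewise showed 0 PTX calls, and 4 of them, beside 21.9% of all genes, were lower in processes of control cultures, Psen2 by 1.37 and Bace1 by 0.59 on the log2 scale. At the same threshold 5 of 8 other sodium channel and related genes could be tested, with 0 PTX calls. Of these, 2 genes were lower in processes of control cultures, beside 21.9% of all genes.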

How the data were processed

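Gene counts of 8 libraries were taken as deposited. The authors trimmed reads with Trimmomatic, mapped them to the rat genome (Rnor 6.0), counted them with featureCounts on Ensembl genes and summed the counts by symbol, without normalization or pooling. The paper's methods name Subread as the aligner, while the submitters' processing notes name STAR. The library kit was directional, and the strand setting of the counting is not given in the sources used here, so reads of overlapping or antisense genes, and of similar stretches of the alpha subunits, are of uncertain origin. The deposited tables of the authors' own PTX comparisons (fold changes and p-values) were not used.

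The 14309 genes with over 20 reads in 2 or more libraries were scaled by TMM and fitted with edgeR 4.0.16 in R 4.3.3, 1 coefficient per group over all 8 libraries. Contrasts were tested with glmQLFTest and Benjamini-Hochberg adjustment over all tested genes, with a threshold of 0.05. Each standard error was obtained by dividing the fold change (log2) by the root of F, and for the interaction the root of the summed squares of both PTX effects. Log2 CPM used a prior count of 2. Within groups, replicate libraries correlated with r between 0.978 and 0.987 and differed by 9.11 to 21.1 times counting noise (chi-square per degree of freedom), so none was a repeat of another. Precision depended less on the library totals of 12290890 to 18455662 counts than on the counts outside the mitochondrial genome, which were lower in processes.

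The replicate numbers, given by the labels, pair the libraries. Deviations of replicate 2 from replicate 1 were correlated across genes, with r from 0.274 to 0.54 for the 6 pairs of conditions, and the block is therefore given beside calls it changes.

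The members and lists were chosen with earlier results of these data known. All 7 genes are named in each contrast, of each partner list at most 3 called genes with the largest change, besides Ank3, which was chosen after its values were seen, and for each member the 2 genes most like it. As alternatives, DESeq2 1.42.0, edgeR's likelihood ratio test, other scalings and filters, only the libraries compared, the replicate block and leaving out each library in turn were run. Tests were checked on simulated counts. Some genes of the partner lists are not reported here by name. RefSeq (GRCr8) gave upstream sequences and neighbours only.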

Additional observations from a re-analysis of the deposited data

How the results depend on the processing

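For processes against somata, 5 to 7 of the 7 genes passed under every alternative, and with library size only all 7 did. For PTX in somata the number of genes called was 2, against 4 with the likelihood ratio test, 4 with the replicate block and 1 with library size only, and 1 to 3 with a library left out. Both counts of 4 include Scn4b, which passed the read filter only through somata control and is no support for a decrease. Scn8a, not called in somata in the main fit, passed there in 6 of the 8 settings that keep all libraries of the comparison. For PTX in processes it was 2, against 3 with the replicate block, the likelihood ratio test or no filter (Scn2b added), 1 with library size only and 0 with only the process libraries fitted (Scn4b not testable), and 0 to 2 with a library left out: 0 without replicate 1 of processes control or without either processes PTX library. The averaged PTX effect, added after seeing the data, gave 3 genes, and 5 with the replicate block, 1 of them Scn4b. For leave-one-out fits a lone library was assumed to vary like the other groups. The share of all genes passing for PTX in somata and in processes was 14% and 11.2% with the block and 6.79% and 6.63% with the likelihood ratio test, against 94.1% and 94.3% for the 2 compartment contrasts with library size only, the averaged effect reached 21% with the block, and for PTX in processes it was 2.46% with only the process libraries. Among the 7 genes the block changed no call other than those given above. The interaction gave 0 of the 7 genes in every setting, and 0.105% of all genes with the block, 0.028% with the likelihood ratio test or DESeq2 and 0.0441% with no filter.

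Upper quartile scaling moved the median of all genes to -0.25 and -0.23 in the compartment contrasts of control and PTX cultures. Of the 7 genes, signs turned for Scn4b, Scn1a and the interactions given here, and the cause was not tested. For Scn4b, processes against somata ranged from -0.87 to 0.20 in control cultures with a library left out, and in PTX cultures -1.75 with library size only, -0.12 with upper quartile, and -0.16 to 0.33 with a library left out. For Scn1a, PTX in processes ranged from -0.40 to 0.093 with a library left out, and the averaged effect was between -0.044 and 0.20 with a library left out. The interaction of Scn2b was -0.0072 with library size only. With a library left out, interactions ranged from -0.12 to 0.14 for Scn2b, -0.017 to 0.21 for Scn3b, -0.18 to 0.064 for Scn3a, -0.26 to 0.072 for Scn8a and -0.15 to 0.92 for Scn4b. Shares per kilobase were not run, since no exon lengths were used. Depth limits Scn4b everywhere and Scn1a in processes.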
